A study of Mus musculus with 2 samples.

Results

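The 48 genes described here encode the machinery of autophagy and the lysosome: the complexes that start an autophagosome, the enzymes that attach LC3 and GABARAP proteins to its membrane, the receptors that load it, the TFEB family of transcription factors, and proteins of the lysosomal membrane and lumen. They were chosen by name, and a gene was measured where a probe set, the group of probes that reads 1 transcript region, carried that single symbol; where a gene had several, the brightest on average stood for it. By this rule 47 of the 48 were found among 19938 genes, and *Optn*, an autophagy receptor, was not analysed here. The values come from 2 arrays of live CD3+CD4+ T cells sorted from the pancreatic draining lymph nodes (PLN) of 8-week-old BDC mice, NOD mice whose T cells carry 1 transgenic TCR against a β cell antigen. Mice of one condition had received 1 mg of nondepleting αCD4 (ND αCD4; clone YTS177) and those of the other 1 mg of isotype control Ab (clone 2A3), both rat antibodies, 48 hours earlier. PLN of 3 mice were pooled, and each condition has 1 array, so the differences below could not be checked against replicates, none was tested, and precision is limited by having a single array on each side.

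Autophagy encloses cytoplasm in a double membrane and delivers it to the lysosome, where hydrolases degrade it. When the kinase mTORC1 is active, as after TCR stimulation and nutrient uptake, it restrains the ULK kinases and keeps TFEB in the cytoplasm; when it is inactive, TFEB enters the nucleus and drives genes of lysosomes and autophagy. T cells need autophagy for survival, for memory and for removing mitochondria and endoplasmic reticulum, and much of its control acts on proteins rather than on mRNA, which is what these arrays read.

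The deposited values are on a scale read as log2, with medians of 8.15 in both arrays. Background was read from 1210 probe sets of odorant and pheromone receptors, which T cells hardly use: their 95th percentile was 7.56 in the ND αCD4 array and 7.64 in the isotype control array. The 13222 genes above it in either array count as detected. T cell markers were bright in both arrays, with *Cd4* at 13.48 after ND αCD4 and 13.38 after isotype control Ab, and all 9 measured T cell markers were detected. The log2 ratio used throughout is the ND αCD4 value minus that of the isotype control, and its median over these markers was 0.02. The 19 measured genes of cell division had a median log2 ratio of -0.80, and the CD8 T cell markers *Cd8a* (10.39 after ND αCD4 and 9.67 after isotype control Ab) and *Cd8b1* (11.83 and 11.38, in that order) were higher after ND αCD4 despite the CD4 gate. In such pools, fewer cells of a type and less RNA per cell cannot be told apart. The part of these shifts in the values below was not tested.

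Autophagy and lysosome genes differed little between the arrays, as did most detected genes. Of the 47 measured genes, 46 were detected, and none was 1.5-fold higher or lower, a size that 1.22% of all detected genes reached (0.212% higher and 1.01% lower). At a smaller size of 1.2-fold, 3 were higher and 0 lower, against 8.64% of detected genes in either direction (2.85% higher and 5.79% lower). The 3 were *Ctsl*, *Tfeb* and *Atg101*. A log2 ratio above 0 was found for 31 of the 46 and below 0 for 15, where 46.7% of all detected genes lay above 0. Their median log2 ratio was 0.06, from -0.18 for *Becn1* to 0.40 for *Ctsl*, and the median of all detected genes was -0.01. The only error these data give is the spread between probe sets of the same gene, an SD of 0.093 in the log2 ratio over 550 genes with exactly 2 detected probe sets, which covers the probes and not the mice. By that measure, 20 of the 46 lay within 1 SD of 0, 18 lay above it (20% of all detected genes did) and 8 lay below it (26.5% of all detected genes).

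**Figure D1:**
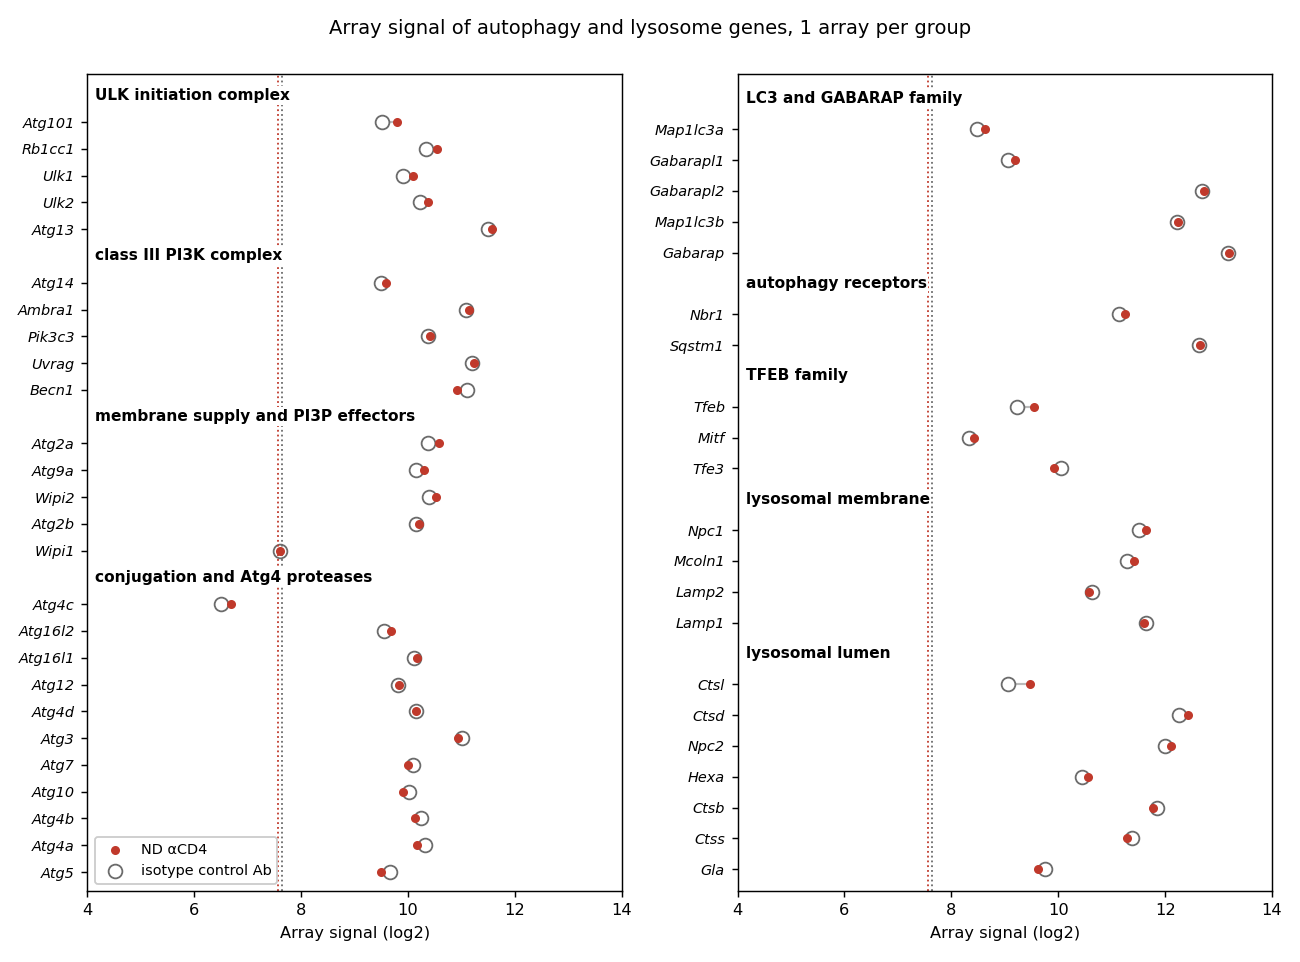
Array signal (log2, x axis) of the 47 measured genes by role, with 1 filled red point for the ND αCD4 array and 1 open gray point for the isotype control array per gene, sorted within a role by log2 ratio. Dotted vertical lines mark the background of each array (red 7.56, gray 7.64); only *Atg4c* and *Wipi1* sit below or beside it, and the widest gap is that of *Ctsl* (9.47 after ND αCD4 and 9.06 after isotype control Ab).

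Among the TFEB family, the transcription factors that drive lysosomal genes, *Tfeb* was the only one past 1.2-fold. Its signal was 9.54 in the ND αCD4 array and 9.22 in the isotype control array, or 1.25-fold higher. The log2 ratio of 0.32 stood at the 98.4th percentile of detected genes. *Tfe3*, which shares its partners and its mTORC1 control, had 9.92 after ND αCD4 and 10.06 after isotype control Ab. *Mitf*, best known from melanocytes and osteoclasts, had 8.42 after ND αCD4 and 8.33 after isotype control Ab. The ratios of *Tfeb* and *Tfe3* thus had opposite signs, and that of *Tfe3* did not reach 1.2-fold. Signals of different genes come from different probes, so the order of levels between them has no meaning.

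In the lysosomal lumen, *Ctsl* stood apart. *Ctsl*, which encodes the cysteine protease cathepsin L, had a signal of 9.47 in the ND αCD4 array and 9.06 in the isotype control array, or 1.32-fold higher. Its log2 ratio of 0.40 was at the 99.3rd percentile of detected genes, while 28 genes elsewhere on the array reached 1.5-fold higher. Of the 3 other cathepsins listed here, only *Ctsd* was also above 0. *Ctsd*, the main aspartic protease of the lysosome, had 12.43 after ND αCD4 and 12.26 after isotype control Ab, a log2 ratio of 0.17. *Ctsb*, a cysteine protease that can also act outside the lysosome, had 11.78 after ND αCD4 and 11.85 after isotype control Ab. *Ctss*, which trims the invariant chain in antigen-presenting cells, had 11.28 after ND αCD4 and 11.37 after isotype control Ab. Both of these were below 0 by less than the spread between probe sets. *Hexa*, a subunit of β-hexosaminidase, and *Npc2*, the soluble cholesterol carrier of the lysosome, had log2 ratios of 0.11 and 0.12, and *Gla*, the α-galactosidase that removes terminal galactose from glycolipids, had the lowest of the group at -0.13 (9.62 after ND αCD4 and 9.75 after isotype control Ab). Of these 7 genes, 4 were above 0 and 3 below, where 46.7% of all detected genes lay above 0. The median of the 7 was 0.11.

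Cathepsins are abundant in phagocytes, so their markers are given beside them. Of 9 measured macrophage and monocyte markers, 4 exceeded background in at least 1 array. *Lyz2* had 8.13 after ND αCD4 and 8.02 after isotype control Ab, and *C1qa* had 7.995 and 7.825, in that order. *Fcgr1* had 7.72 after ND αCD4 and 7.68 after isotype control Ab. *Itgam* (7.57 and 7.61, in that order) exceeded background only in the ND αCD4 array. *Csf1r*, *Adgre1*, *Cd14*, *C1qb* and *C1qc* did not exceed background in either array. The part of such cells in the cathepsin values was not tested. Summed on the linear scale, with the 5 markers not above background included, the list had 1652 signal units in the ND αCD4 array and 1609 in the isotype control array. All 5 measured B cell markers were detected and above 0, where 46.7% of all detected genes lay above 0. *Cd79b* was the brightest (10.44 after ND αCD4 and 10.34 after isotype control Ab). *Cd79a* (7.64 and 7.35, in that order) exceeded background only in the ND αCD4 array. The part of B cells in the cathepsin values was not tested either. The 5 B cell markers summed to 2312 units after ND αCD4 and 2147 after isotype control Ab. Such sums add different probes and serve only to set one array against the other. Of 6 dendritic cell markers, 2 exceeded background, *Zbtb46* and *Siglech*, and both had ratios below 0.

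Among the lysosomal membrane genes, the structural glycoproteins *Lamp1* (11.60 after ND αCD4 and 11.65 after isotype control Ab) and *Lamp2* (10.58 and 10.62, in that order), which line the inner face of the membrane, both had log2 ratios of -0.04. The transporters were on the other side of 0. *Npc1*, which exports cholesterol, had 11.64 in the ND αCD4 array and 11.52 in the isotype control array. *Mcoln1*, the calcium channel whose opening activates the phosphatase that acts on TFEB, had 11.41 in the ND αCD4 array and 11.29 in the isotype control array. None of the 4 reached 1.2-fold, and their log2 ratios spanned only -0.04 to 0.13.

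TFEB and its relatives bind a short element whose core is CACGTG, a palindrome that MYC and USF proteins also recognise. These letters were searched in RefSeq promoters (GRCm38.p6; 250 bases before to 50 after each annotated start), which were given for 40 of the 48 genes. Some genes had several, 48 promoters in all, and 23 of these starts coincided with the outer end of the gene in RefSeq. Positions are counted from the start of the promoter searched. At least 1 match was present in 9 of the 40 genes (22.5%), against 11.3% of the detected genes with a promoter and 8.09% of all genes. Among the further pathway genes described below, 26 of 103 (25.2%) had a match. Of the 9 lysosomal genes with a promoter, 5 had a match, namely *Ctsd*, *Ctsl*, *Gla*, *Lamp1* and *Mcoln1*. The other genes with a match were *Atg3*, *Atg5*, *Atg7* and *Atg14*, 4 of 31 outside the lysosome (12.9%). The lysosomal stretches are shown because they hold the letters through which TFEB is known to act, next to genes whose signals went both ways. Each is written 5′ to 3′ on the strand of the gene and lies upstream of its start, with CACGTG in capitals.
Ctsl, chr13:64370731-64370770, minus strand: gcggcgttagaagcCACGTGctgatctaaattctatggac
Ctsd, chr7:142387900-142387945, minus strand: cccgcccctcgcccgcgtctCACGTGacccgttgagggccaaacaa
Mcoln1, chr8:3500428-3500499, plus strand: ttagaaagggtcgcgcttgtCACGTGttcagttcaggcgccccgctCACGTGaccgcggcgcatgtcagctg
Lamp1, chr8:13159080-13159160, plus strand: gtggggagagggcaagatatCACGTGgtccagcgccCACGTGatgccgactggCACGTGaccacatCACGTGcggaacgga
Gla, chrX:134601174-134601252, minus strand: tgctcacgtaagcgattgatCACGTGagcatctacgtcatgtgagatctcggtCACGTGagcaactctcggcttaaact
*Lamp1* had 4 matches within its last 61 bases before the start and *Gla* and *Mcoln1* 2 each, whereas *Ctsl* had 1, at -236. *Ctsd* had a further match at -245 that is not shown. With the letters T before and A after the core, which come closer to the full element, matches remained in 4 of the 40 genes (*Ctsd*, *Gla*, *Mcoln1* and *Atg3*), or 10%, against 7.77% of the further pathway genes and 2.04% of detected genes. The log2 ratios of the 9 detected genes with CACGTG ran from -0.17 for *Atg5* to 0.40 for *Ctsl*, 4 above and 5 below 0, with a median of -0.04. The 29 detected genes whose promoter lacked it had a median of 0.07, with 21 above and 8 below 0. Among all detected genes, 46.7% were above 0. Of the genes with CACGTG, *Atg3*, *Atg5* and *Atg7* are conjugation genes, the only role with a median below 0. Match and role overlap there, and the difference between the sets was not tested. Of the other genes past 1.2-fold, *Tfeb* had no match in these windows, and *Atg101* was not among the 9 genes with a match. *Becn1*, the gene with the lowest log2 ratio, had no promoter given and was not searched. A match is a description of the letters, and binding was not measured.

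**Figure D2:**
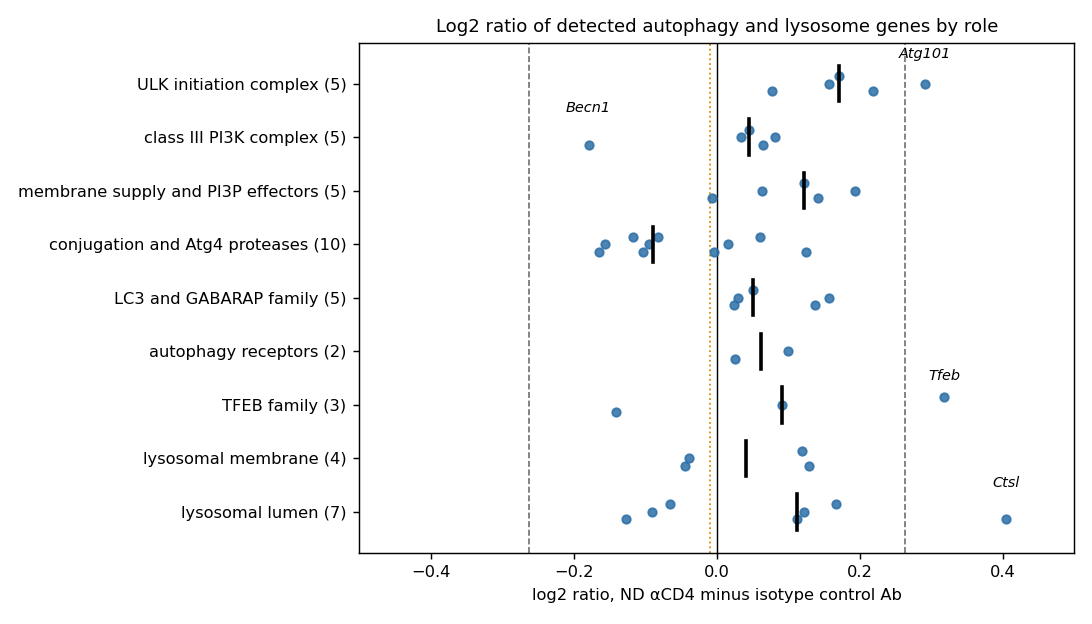
Log2 ratio (ND αCD4 minus isotype control Ab, x axis) of the 46 detected genes by role, 1 point per gene with the number of genes in brackets, the median of each role as a black bar, 0 as a solid line, 1.2-fold as dashed lines and the median of all detected genes (-0.01) as a dotted line; height within a role has no meaning. All 5 ULK complex genes lie above 0 with a median of 0.17, and 7 of 10 conjugation genes lie below 0 with a median of -0.09. Among all detected genes, 46.7% lie above 0.

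The ULK complex, which starts autophagosome formation, was the role with the highest median, 0.17, and all 5 of its genes were above 0. The share above 0 among all detected genes was 46.7%. *Atg101*, which stabilises Atg13 in the complex, had 9.80 in the ND αCD4 array and 9.51 in the isotype control array, or 1.22-fold higher. *Rb1cc1*, which encodes the scaffold FIP200, had 10.55 after ND αCD4 and 10.33 after isotype control Ab, 1.16-fold. The kinases followed. *Ulk1* had 10.08 after ND αCD4 and 9.91 after isotype control Ab, and *Ulk2* had 10.37 after ND αCD4 and 10.22 after isotype control Ab. *Atg13*, the adaptor that mTORC1 phosphorylates together with the kinases, was nearest to 0, with 11.57 after ND αCD4 and 11.49 after isotype control Ab. Apart from *Atg13*, each ratio was larger than the spread between probe sets, and only that of *Atg101* reached 1.2-fold.

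In the class III PI3K complex, which marks the growing membrane with the lipid PI3P, the scaffold *Becn1* (Beclin 1) had the lowest log2 ratio of all 46 genes. Its signal was 10.92 in the ND αCD4 array and 11.10 in the isotype control array, 1.13-fold lower, which is short of 1.2-fold. The kinase *Pik3c3* had 10.42 after ND αCD4 and 10.37 after isotype control Ab. *Atg14*, which directs the complex to autophagosomes, had 9.58 after ND αCD4 and 9.50 after isotype control Ab, and *Uvrag*, which directs it to endosomes, had 11.23 after ND αCD4 and 11.19 after isotype control Ab. *Ambra1*, a regulator that binds Beclin 1, had a log2 ratio of 0.07. Those 4 all lay within the spread between probe sets, and *Becn1* did not. The genes that supply and read the membrane were mostly above 0. *Atg2a*, a lipid transfer protein, had 10.57 after ND αCD4 and 10.38 after isotype control Ab, a log2 ratio of 0.19. Its paralog *Atg2b* had 0.06 in the probe set used and 0.10 in a second one. *Atg9a*, the transmembrane scramblase of autophagy vesicles, had 0.14 and *Wipi2*, a PI3P reader that recruits Atg16l1, 0.12. *Wipi1* was at background, with 7.60 after ND αCD4 and 7.61 after isotype control Ab, and it exceeded background only in the ND αCD4 array.

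The conjugation enzymes and Atg4 proteases were the only role with a median log2 ratio below 0, at -0.09, with 7 of 10 detected genes below 0 and 3 above. That median lay between the lower and upper quartiles of all detected genes (-0.10 and 0.07), of which 46.7% were above 0. *Atg5*, which joins Atg12 to form the ligase for LC3, had the lowest value of the role, at 9.50 in the ND αCD4 array and 9.66 in the isotype control array. *Atg4a*, a protease that trims GABARAP proteins, had 10.17 after ND αCD4 and 10.32 after isotype control Ab, and its second probe set gave the same direction (10.10 and 10.20, in that order). *Atg4b*, the protease with most activity on LC3, had a log2 ratio of -0.12. *Atg10*, the carrier enzyme for Atg12, had -0.10, *Atg7*, the activating enzyme of both conjugation reactions, -0.09, and *Atg3*, the carrier enzyme for LC3, -0.08. On the other side, *Atg16l2*, a paralog of the ligase scaffold, had the highest value, at 9.68 after ND αCD4 and 9.56 after isotype control Ab. *Atg16l1* had 0.06 and *Atg12* 0.02. *Atg4d* was at 10.15 in both arrays, and the sign of its ratio changed with the scaling. *Atg4c* did not exceed background in either array (6.68 after ND αCD4 and 6.49 after isotype control Ab). None of the 10 reached 1.2-fold, and whether this role differs from the ULK complex could not be tested with 1 array per condition.

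All 5 genes of the LC3 and GABARAP family, the ubiquitin-like proteins that are attached to the autophagosome membrane, were above 0, but by small amounts. For comparison, 46.7% of all detected genes lay above 0. In 3 of the 5 family genes the arrays differed by less than the spread between probe sets. *Gabarap* had 13.19 in the ND αCD4 array and 13.17 in the isotype control array. *Gabarapl2* had 12.73 after ND αCD4 and 12.68 after isotype control Ab, with a dimmer probe set at a log2 ratio of 0.18. *Map1lc3b*, which encodes the LC3 protein most often used to follow autophagy, had 12.25 after ND αCD4 and 12.22 after isotype control Ab, and its second probe set gave 0.02. The remaining pair had larger ratios. *Gabarapl1*, a gene that FOXO factors are known to induce in muscle, had 9.19 after ND αCD4 and 9.06 after isotype control Ab. *Map1lc3a* had 8.63 after ND αCD4 and 8.47 after isotype control Ab, 1.11-fold. Both measured receptors that link cargo to these proteins were above 0. *Sqstm1*, which encodes p62, had 12.65 after ND αCD4 and 12.63 after isotype control Ab, within the spread between probe sets. *Nbr1* had 11.24 after ND αCD4 and 11.14 after isotype control Ab, a log2 ratio of 0.10 that was just beyond it.

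**Figure D3:**
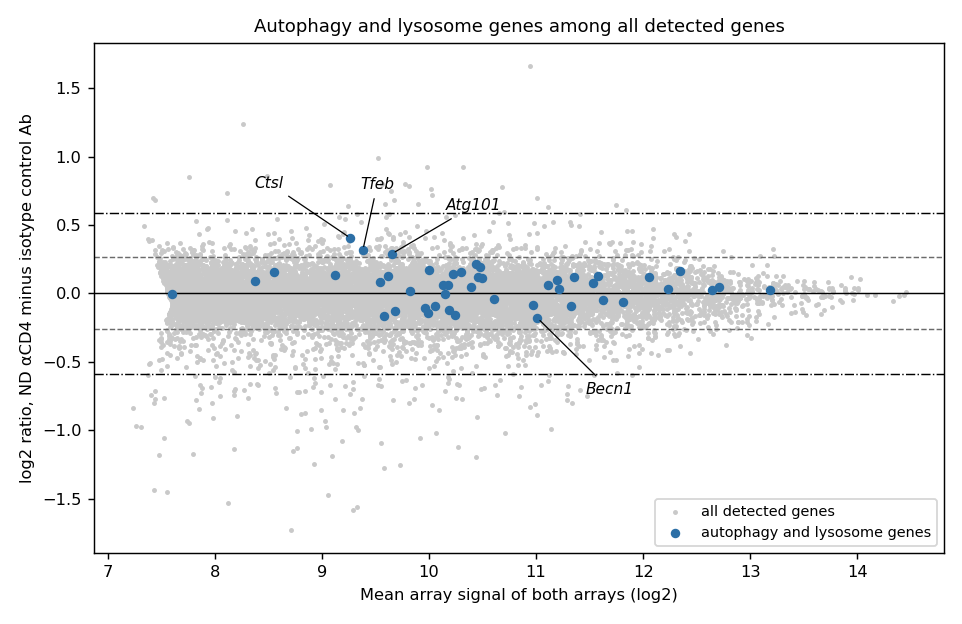
Log2 ratio (ND αCD4 minus isotype control Ab, y axis) against the mean signal of both arrays (log2, x axis) for all 13222 detected genes (gray) and the 46 detected autophagy and lysosome genes (blue), with 1.2-fold as dashed and 1.5-fold as dash-dotted lines. All 46 lie inside the 1.5-fold lines and only *Ctsl*, *Tfeb* and *Atg101* lie above the upper 1.2-fold line.

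Of 126 further genes of the same pathways, listed by function, 120 were measured and 115 detected, and their median was closer to 0 still. None reached 1.5-fold, against 1.22% of all detected genes. At 1.2-fold, 0 were higher and 1 was lower, against 2.85% and 5.79% of all detected genes in the same order, and the median log2 ratio was 0.02. Above 0 were 68 of the 115 (59.1%), against 46.7% of all detected genes. The median of each list given below lay between the lower and upper quartiles of all detected genes, -0.10 and 0.07. The lower gene was *Fnip2*, a partner of folliculin in the control of TFEB by Rag GTPases, at 8.12 in the ND αCD4 array and 8.41 in the isotype control array. The 25 detected genes of mTORC1 and TFEB control at the lysosome had 17 above 0 and 8 below, with *Lamtor2*, a subunit of the Ragulator complex, the highest at 0.16. Among the V-ATPase subunits, which acidify the lysosome, 11 of 16 were below 0 and the median was -0.04. *Atp6v0a1* had the lowest value there (8.30 after ND αCD4 and 8.52 after isotype control Ab) and *Tcirg1*, the subunit of secretory lysosomes, the highest (0.09).

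The 30 detected lysosomal hydrolases and activators beyond those above had 20 above 0 and 10 below, with a median of 0.02, where 46.7% of all detected genes lay above 0. The highest was *Ctsw*, a cathepsin of cytotoxic lymphocytes, at 10.20 in the ND αCD4 array and 9.95 in the isotype control array. *Cd8a* was also higher in the ND αCD4 array. Of 4 measured NK cell markers, 3 did not exceed background in either array. Only *Klrd1* did, at 8.19 after ND αCD4, while its 7.34 after isotype control Ab lay below background. The part of CD8 T cells and NK cells in the *Ctsw* value was not tested. The lowest was *Acp2*, a lysosomal acid phosphatase, at 9.64 after ND αCD4 and 9.87 after isotype control Ab. Of 16 further lysosomal membrane genes, 11 were above 0 with a median of 0.05, from *Cln3* at -0.09 to *Tpcn1*, an ion channel of endosomes and lysosomes, at 0.25. The 17 genes of autophagosome formation and fusion had a median of 0.00, from *Tmem41b*, a scramblase of the endoplasmic reticulum, at -0.20 to *Tecpr1*, which links autophagosomes to lysosomes, at 0.25. The 11 detected genes of selective autophagy spanned -0.13 for the mitophagy receptor *Fundc1* to 0.12 for *Calcoco1*, a receptor for endoplasmic reticulum and Golgi.

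**Figure D4:**
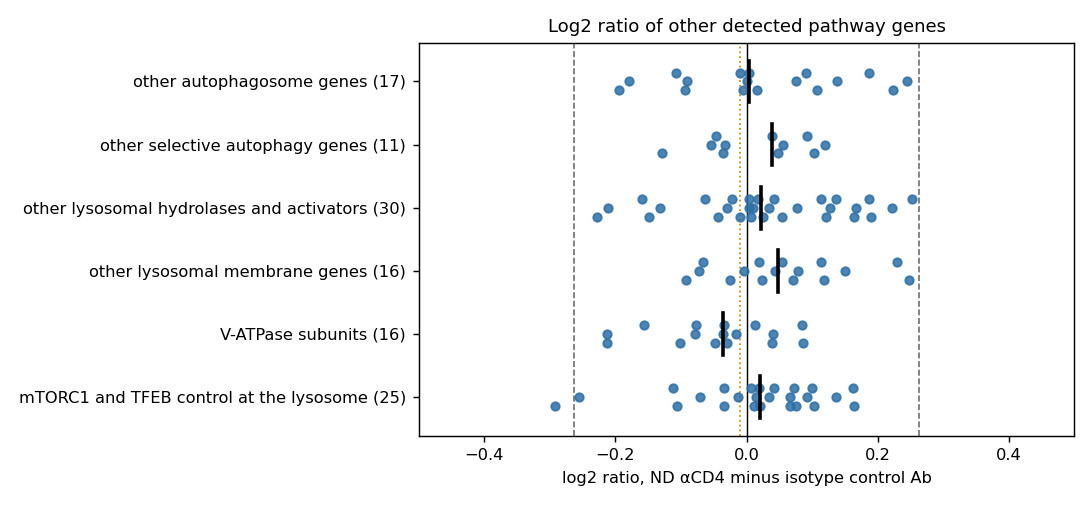
Log2 ratio (ND αCD4 minus isotype control Ab, x axis) of the 115 detected further pathway genes by list, 1 point per gene with the number of genes in brackets, list medians as black bars, 0 as a solid line, 1.2-fold as dashed lines and the median of all detected genes as a dotted line; height within a list has no meaning. Medians run from -0.04 for the V-ATPase subunits to 0.05 for lysosomal membrane genes, and *Fnip2* (-0.29) alone lies past a dashed line.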

How the data were processed

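CD3+CD4+ T cells of the PLN were profiled on 1 Affymetrix array per condition. The authors deposited 1 log2 value for each of 35557 probe sets. Affymetrix Expression Console is the tool named in the submitters' processing notes; its version, background correction, normalization and summary steps were unstated, meaning not given in the sources used here. A log2 scale was inferred from the values, which run from 2.52 to 14.7 and have nearly equal distributions. In the labels the headings for age and for agent are interchanged, and they number the BDC clone differently from the paper.

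From these deposited log2 values, 21789 probe sets with 1 symbol in the platform's annotation were used, and 21698 of them matched the RefSeq table of GRCm38.p6 by gene identifier. Those with several symbols (1621) or none given (12147) were left out. The log2 ratio is ND αCD4 minus isotype control, with size rules of 1.5-fold and 1.2-fold and no test. Values in both arrays were given for genes past 1.2-fold, for the highest and lowest of each role, for the TFEB, LC3 and GABARAP families and for genes at background; of the further lists, the highest and lowest gene and those past 1.5-fold were named, and *Fnip2* also because it was the only one past 1.2-fold. The genes, lists and rules were chosen with earlier results of these data known. Alternatives tried were quantile normalization, lowess (fraction 0.3, 3 iterations), median centring, flooring at background, no filter, detection in both arrays, a background at the 99th percentile, the mean of probe sets and a 2-fold rule. The ratio and count steps were tested on simulated data. Computation was in Python 3.11.15 with pandas 2.3.3 and numpy 2.4.6; lowess came from statsmodels 0.14.6, and plots from matplotlib 3.10.9.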

Additional observations from a re-analysis of the deposited data

How the results depend on the processing

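With 1 array per condition, no value here covers differences between mice, sorts or hybridisations, and probes near background limit *Wipi1* and *Atg4c*. Under each alternative run, 3 genes were at least 1.2-fold higher, 0 lower and 0 past 1.5-fold (and so 0 past 2-fold), and 30 to 32 had a log2 ratio above 0. The median of all genes described ranged from 0.06 to 0.08. All 128 recomputed medians and all 365 recomputed ratios of single genes moved by less than the SD between probe sets, and *Atg4d* alone changed sign (-0.01 to 0.02). Most of the agreement between single ratios was fixed beforehand. The filter and background choices only set which genes count, and median centring moved all ratios equally. Flooring and the mean of probe sets could touch few genes, so only lowess and quantile normalization could move most ratios. Quantile normalization took 1 gene past 1.2-fold in each of 3 further lists that otherwise had 0: *Tecpr1* (0.27) among autophagosome genes, *Ctsw* (0.27) among hydrolases and *Tpcn1* (0.27) among lysosomal membrane genes. With no filter, 1 lysosomal membrane gene passed, *Cd63* (-0.35), which is below background in both arrays. Asking for T before and A after CACGTG left 4 of 9 genes with a promoter match, fewer by construction. No paired analysis was possible because each condition has 1 array and no test was run.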
